A study of Mus musculus with 30 samples.

Results

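A set of 44 mRNAs in mouse spermatogonial stem cell (SSC) lines was scarce and yet decayed slowly. Members had an abundance above 0 and below 15 FPKM (read counts scaled to transcript length and library size) in each of 2 lines, and a half-life of at least 350 min in both. Genes whose symbols start with Rpl, Rps, Mrp, Nduf, Slc or Zfp were left out. The 44 were 3.66% of the 1203 low-abundance mRNAs chosen by the same limit and symbols that had a half-life, and the other 1159 served for comparison. Since FPKM and half-life chose the members, those values are given as a description with no test.

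The study asked how NANOS2, an RNA-binding protein of undifferentiated spermatogonia, acts on mRNA. SSC lines grown on feeder cells and carrying an epitope-tagged Nanos2 allele were used, and each genotype was 1 line in these data. The tagged allele stood beside an untagged one in the Nanos2TAG/+ line, called TAG/+ here. In the Nanos2TAG/TAG line, called TAG/TAG here, both alleles carried the tag. Each line gave 1 ribosomal-RNA-depleted RNA-seq library, made after feeder depletion, with RNA taken up in QIAzol for TAG/+ and in Trizol for TAG/TAG according to the labels. SLAM-seq, in which RNA is labelled with 4-thiouridine and the loss of labelled RNA is followed after the label is withdrawn, gave 1 half-life per transcript and line from 12 libraries at 6 chase times between 0 and 1440 min, all extracted with Trizol. Replicate SLAM-seq libraries were thus joined in the fit, and each line had 1 value for either measure, with no spread between replicates. Neither line lacks NANOS2. In the RNA-seq data an effect of the genotype cannot be told apart from one of the line or of the extraction reagent.

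The amount of an mRNA in a cell is set by how fast it is made and how fast it is lost, so a stable mRNA that stays scarce is one with little synthesis relative to its decay, or one that is present in few of the cells. mRNA decay usually starts with shortening of the poly(A) tail, carried out largely by the CCR4-NOT complex. RNA-binding proteins that read short elements in the 3′ UTR, such as AU-rich element binding proteins and PUMILIO proteins, recruit that complex, and NANOS proteins act in the same way in germ cells. mRNAs for metabolic enzymes and structural proteins are typically long-lived, whereas those for transcription factors and other regulators typically turn over fast.

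Stretches of 3′ UTR around matches to the motif that the study assigns to NANOS2 are shown for Wdr89, Ptgr1, Tomm7 and 2410004P03Rik, since they show that a match and a long half-life occurred in the same mRNA. These 4 were among the 10 members ranked highest by the lower of their 2 half-lives. The motif was searched on the sense strand as AUGAAAU, in the form AUGAAUU, in the form AUUAAAU and in the form AUUAAUU. Capitals mark the match, with 10 bases on each side. Coordinates are those of the match in GRCm38, all on the minus strand, from the GENCODE M21 coding transcript.
Wdr89, chr12:75630969-75630975: ggcuuguuugAUUAAAUuccugcuccc
Wdr89, chr12:75630862-75630868: auauuauaugAUUAAAUauucuuucuu
Ptgr1, chr4:58966497-58966503: gugauagagaAUGAAAUcaugacaacc
Tomm7, chr5:23839120-23839126: uuauuuguagAUUAAAUgagucuagaa
2410004P03Rik, chr12:17003854-17003860: augacugaaaAUUAAUUcaaagucagc
2410004P03Rik, chr12:17003334-17003340: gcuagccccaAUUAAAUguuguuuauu
Col1a2, Dcn, Parp3, Enpp5 and Anxa6, also among those 10, had no match in their 3′ UTRs, and Lox, the remaining one, had 1, whose sequence is not shown. A match is a description of the letters and does not show binding.

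Long half-lives were less common among scarce mRNAs than among abundant ones. Of all 5152 genes with both measures, 11.9% had at least 350 min in both lines. Of the 3390 genes at 15 FPKM or more in both lines 15.6% did (530 genes). No symbols were left out of these sets or of the bins that follow. Across bins of mean FPKM the share was 2.25% of 444 genes up to 5 FPKM, 4.27% of 586 genes between 5 and 10, 5.54% of 487 between 10 and 15, 7.94% of 1851 between 15 and 50, and 22.6% of 1784 above 50. The median half-life rose along the same bins, from 144 to 273 min in TAG/+ and from 147 to 281 min in TAG/TAG. The members therefore lie at the edge of the low-abundance class in half-life and inside it in abundance.

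**Figure D1:**
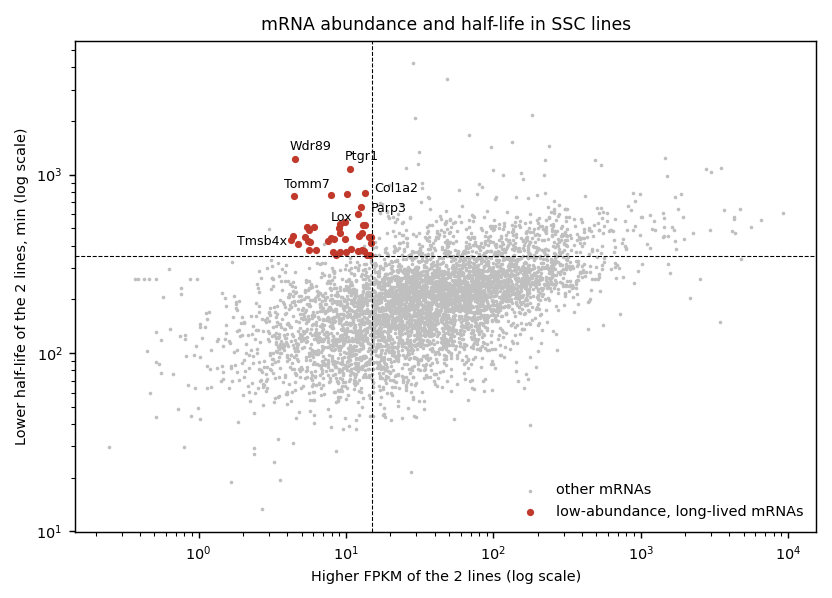
Abundance (horizontal axis, the higher FPKM of the 2 lines, log scale) against half-life (vertical axis, the lower value of the 2 lines in min, log scale), 1 point per gene with both measures above 0. Dashed lines mark 15 FPKM and 350 min. The 44 members, in red, fill the thinly populated upper left quadrant, where the grey points are genes left out by symbol, and most long-lived mRNAs lie to the right of it.

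In FPKM the members lay within the low-abundance class and leaned to its upper part. Their median was 7.71 FPKM in TAG/+ (range 2.99 to 14.9) and 7.37 in TAG/TAG (range 1.15 to 14.8), beside 6.69 and 6.75 for the 1159 others. The first quartile in TAG/+ was 5.41 FPKM for members and 3.54 for the others, and the lowest member in TAG/+ stood at 2.99 FPKM where the others reached down to 0.0177. Their half-lives had a median of 449 min in TAG/+ (353 to 1219) and 564 min in TAG/TAG (356 to 2589), beside 162 min in each line for the others. Half-lives beyond the last chase time of 1440 min, which rest on extrapolation of the decay fit, were found for 3 members in TAG/TAG (Ptgr1, Elmod2 and Parp3) and for 0 in TAG/+. At the other end, 9 members exceeded 540 min in both lines.

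The depth behind these values was modest. The FPKM of each gene times its mean annotated transcript length came out as whole reads for 100% of 13884 genes (within 0.02 of a read), which gave 10977831 reads in the TAG/+ library and 11656606 in the TAG/TAG library. Each member rested on 19 to 525 reads in TAG/+ (median 155) and 13 to 943 in TAG/TAG (median 162.5). Intervals on FPKM given below are exact 95% Poisson intervals on those reads and cover counting error only.

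Extracellular matrix genes made up 6 of the members, with a median half-life of 568 min in TAG/+ and 785 min in TAG/TAG. This and the role groups below were assigned to the members alone, after values were seen. Their counts therefore have no share among the other low-abundance mRNAs beside them. Col1a2, which encodes a chain of type I collagen, had half-lives of 786 and 899 min in TAG/+ and TAG/TAG at 9.17 and 13.5 FPKM. Dcn, which encodes the collagen-binding proteoglycan decorin, had 784 and 871 min at 4.44 and 10.2 FPKM. Lox, the lysyl oxidase that crosslinks collagen and elastin, had 606 and 698 min at 5.57 and 12.1 FPKM. These 3 collagen-related mRNAs were higher in abundance in TAG/TAG, and their long half-lives in both lines were required by the rule. Tnc, encoding the matrix glycoprotein tenascin C, had nearly equal half-lives of 531 and 526 min at 6.69 and 13.4 FPKM. Timp2, an inhibitor of matrix metalloproteinases, had 521 and 569 min at 13.0 and 12.4 FPKM, the least difference in FPKM of the 6. Matn4, the matrix adaptor matrilin 4, had 501 and 980.5 min at 8.99 and 5.38 FPKM. In all, 4 of the 6 had the higher FPKM in TAG/TAG, beside 16 of all 44 members, and Timp2 and Matn4 had the lower.

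Fibroblast markers were compared beside these genes because the lines are kept on feeders, although feeders were depleted and the methods describe isolation of SSCs by sorting. Of 11 fibroblast markers 9 had an FPKM (Lum and Acta2 had none listed). These 9 were Col1a1, Col1a2, Col3a1, Col6a1, Pdgfrb, Thy1, Dcn, Postn and Fn1. They summed to 323 FPKM in TAG/+ and 407 in TAG/TAG, with 8 of 9 higher in TAG/TAG. Whether each of them is particular to feeder cells in these cultures was not tested. Single markers ranged from 0.660 to 254 FPKM in TAG/+ and from 2.98 to 280 in TAG/TAG, with Fn1 highest, and none stood at 0. Among the 5 with a half-life, 4 had at least 350 min in both lines (Col1a1, Col1a2, Dcn and Fn1). Thy1, the remaining one, had 330 min in TAG/+ and 110 min in TAG/TAG. The median of the 5 was 678 min in TAG/+ and 745 min in TAG/TAG. Col1a2 and Dcn are members themselves. The part of fibroblast RNA in the values of the matrix genes was not tested. In bulk libraries few cells with much of an mRNA and many cells with little of it cannot be told apart. All 8 undifferentiated spermatogonial markers were present and ranged from 1.76 FPKM (Id4) to 214 in TAG/+ and from 1.59 to 192 in TAG/TAG. They summed to 642 FPKM in TAG/+ and 885 in TAG/TAG, with 3 of 8 higher in TAG/TAG. The germ cell genes Ddx4, Tex101 and Mael stood at 31.0 FPKM or more, while Dazl had no FPKM listed. These 3 genes summed to 342 and 376 FPKM, with all 3 higher in TAG/TAG. Sums were thus higher in TAG/TAG for each marker class, and of all 13904 genes 49.5% were lower there.

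**Figure D2:**
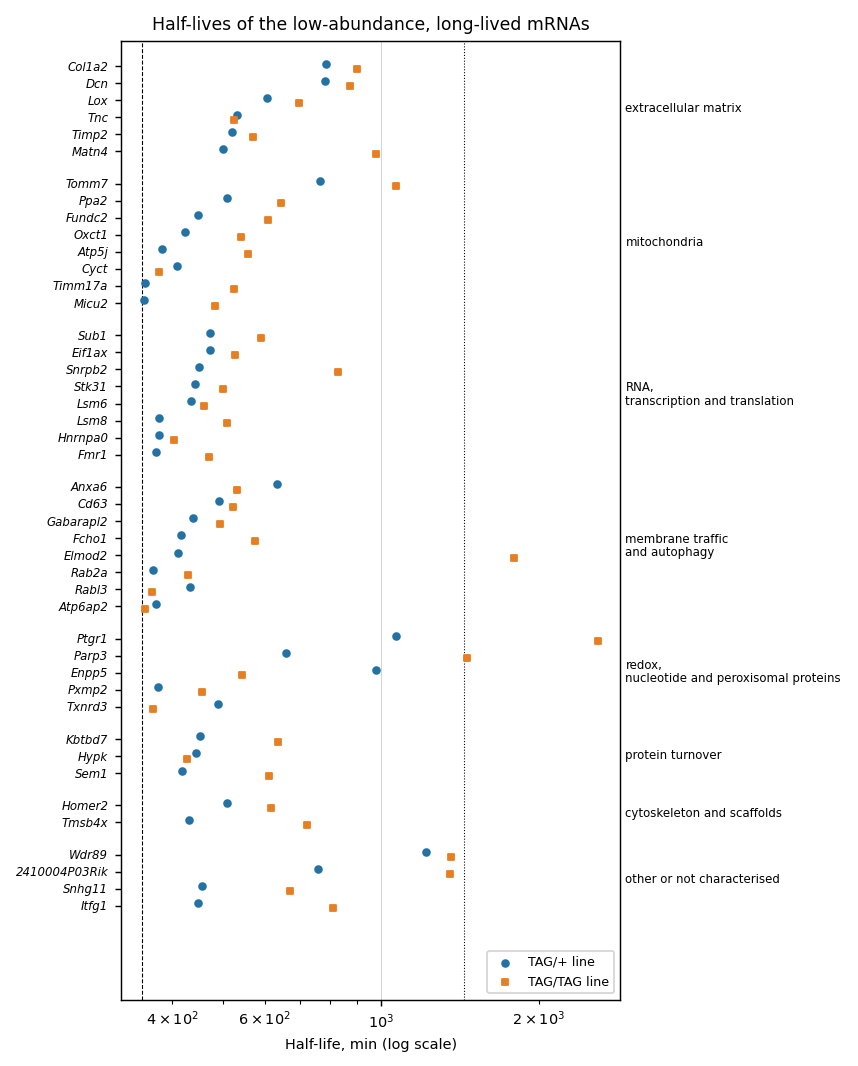
Half-life of each of the 44 members (horizontal axis, min, log scale) in the TAG/+ line (blue circles) and the TAG/TAG line (orange squares), grouped by role, 1 fitted value per line and no error bar since the tables hold no fit error. The dashed line is the 350 min limit and the dotted line the last chase time of 1440 min. Orange squares lie to the right of blue circles for 36 of 44 genes, and Ptgr1, Elmod2 and Parp3 pass the last chase time in TAG/TAG.

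Proteins of mitochondria accounted for 8 members, with a median half-life of 415 min in TAG/+ and 549 min in TAG/TAG. Tomm7, a small subunit of the translocase of the outer membrane, was the longest-lived of them at 766 and 1070.1 min, with 7.90 FPKM in TAG/+ and 3.41 in TAG/TAG. Timm17a, a subunit of the inner membrane translocase, had 355 and 526 min at 12.8 and 14.6 FPKM. Import machineries of both membranes were thus represented. Atp5j, which encodes coupling factor 6 of the ATP synthase, had 383 and 558 min at 2.99 and 10.8 FPKM. Ppa2, the mitochondrial pyrophosphatase, had 509 and 645 min at 5.45 and 5.22 FPKM. Oxct1, which activates acetoacetate in ketone body use, had 423 and 541 min at 7.55 and 6.83 FPKM. Fundc2, a protein of the outer membrane, had 449 and 609 min at 14.2 and 13.6 FPKM, and Micu2, a regulator of the calcium uniporter, 353 and 483 min at 13.9 and 8.81 FPKM. Cyct, the testis-specific form of cytochrome c and a germ cell gene, was the sole mitochondrial member with the longer half-life in TAG/+, at 408 and 377 min with 4.20 and 6.24 FPKM.

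RNA metabolism, transcription and translation accounted for another 8, with median half-lives of 439 and 504 min. Snrpb2, the U2 small nuclear ribonucleoprotein component B″, had 449 and 828 min at 5.29 and 1.76 FPKM. Lsm6 and Lsm8 belong to the LSM ring that binds U6 snRNA, and Lsm6 also to the cytoplasmic ring that takes part in mRNA decapping. Lsm6 had 435 and 459.7 min at 7.90 and 9.86 FPKM, and Lsm8 378 and 508 min at 9.66 and 12.9 FPKM. Hnrnpa0, an hnRNP that binds AU-rich elements, had 378 and 404 min at 5.61 and 2.45 FPKM. Splicing and decay factors were thus among the members, whose slow decay was required by the rule. Sub1, a transcriptional coactivator, had 473 and 592 min at 12.8 and 7.19 FPKM, and Eif1ax, the X-linked translation initiation factor eIF1A, 472 and 527 min at 9.15 and 8.51 FPKM. Fmr1, which encodes the translational regulator FMRP, had 373 and 469.8 min at 12 and 9.21 FPKM. Stk31, a germ cell protein with a Tudor domain and a kinase-like domain, had 443 and 499 min at 7.86 and 7.41 FPKM. All 8 had the longer half-life in TAG/TAG, beside 36 of all 44 members, and 6 of 8 had the lower FPKM there, beside 28 of 44.

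Membrane traffic and autophagy gave 8 more members, with median half-lives of 424 and 508 min. Anxa6, a calcium-dependent membrane-binding annexin, had 634 and 531 min at 4.25 and 9.13 FPKM. Cd63, a tetraspanin of late endosomes, had 492 and 522 min at 5.57 and 4.69 FPKM. Gabarapl2, a member of the ATG8 family that is conjugated to autophagosome membranes, had 438 and 495 min at 8.25 and 7.34 FPKM. Fcho1, which acts early in clathrin-mediated endocytosis, had 416 and 576 min at 9 and 14.8 FPKM. Elmod2, a GTPase-activating protein for ARL and ARF GTPases, had 411 and 1796 min at 4.75 and 3.87 FPKM. Its value in TAG/TAG lay beyond the last chase time. Rab2a, a GTPase of traffic between the endoplasmic reticulum and the Golgi, had 367 and 429 min at 9.07 and 3.16 FPKM. Rabl3, a Rab-like GTPase, had 432 and 366 min at 8.13 and 6.15 FPKM, and Atp6ap2, an accessory protein of the vacuolar proton pump, 372 and 356 min at 7.17 and 8.59 FPKM. Anxa6, Rabl3 and Atp6ap2 were longer-lived in TAG/+, and the other 5 in TAG/TAG.

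The members with redox, nucleotide or peroxisomal functions held the widest spread of half-lives in TAG/TAG. Ptgr1, an NADPH-dependent reductase that inactivates leukotriene B4 and prostaglandin metabolites, had 1070.1 min in TAG/+ and 2589 min in TAG/TAG, the latter the highest value of any member, with 10.6 and 7.24 FPKM. Parp3, a poly(ADP-ribose) polymerase of DNA double-strand break repair, had 659.8 and 1457 min at 5.95 and 12.7 FPKM. Enpp5, a transmembrane member of the pyrophosphatase and phosphodiesterase family, went the other way, with 977 min in TAG/+ and 544 min in TAG/TAG at 9.80 and 8.33 FPKM. Pxmp2, a channel protein of the peroxisomal membrane, had 375 and 456 min at 13.2 and 6.21 FPKM. Txnrd3, the thioredoxin-glutathione reductase that is abundant in testis, had 489.7 and 369 min at 6.36 and 9.97 FPKM.

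The remaining 9 members were of mixed function. Sem1, a small subunit of the proteasome lid, had 418 and 613 min at 5.66 and 4.53 FPKM. Hypk, a chaperone-like partner of the N-terminal acetyltransferase complex, had 444 and 427 min at 3.48 and 5.53 FPKM, and Kbtbd7, a substrate adaptor of a cullin 3 ubiquitin ligase, 453 and 638 min at 4.35 and 3.86 FPKM. Of these 3 genes of protein turnover, Hypk alone had the longer half-life in TAG/+. Tmsb4x, which encodes the actin-sequestering peptide thymosin beta 4, had 431 and 722 min at 4.25 and 1.43 FPKM, on 36 and 13 reads. Homer2, a scaffold protein that binds metabotropic glutamate receptors, had 509.9 and 616 min at 5.56 and 6.10 FPKM. Wdr89, a WD-repeat protein, led the members by the lower of its half-lives, at 1219 and 1358 min with 4.48 and 3.43 FPKM. No other member had so long a half-life in TAG/+. The uncharacterised 2410004P03Rik had 757 and 1352 min at 4.43 and 1.15 FPKM, Itfg1, a transmembrane protein with integrin-like FG-GAP repeats, had 449 and 809 min at 14.9 and 8.35 FPKM, and Snhg11, a small nucleolar RNA host gene with an annotated coding transcript, 456 and 671 min at 12.2 and 8.43 FPKM. These 4 members were all longer-lived and lower in FPKM in TAG/TAG, where 36 of all 44 members were longer-lived and 28 lower in FPKM.

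At the limits of the rule the values ran on without a gap. Just inside the half-life limit, by the lower of the 2 values, were Micu2 at 353 min, Timm17a at 355, Atp6ap2 at 356, Rabl3 at 366 and Rab2a at 367. Just outside it were Fthl17c at 343 min, Gtf2h5 at 331, Coq5 at 326, Gm20498 at 324 and Il17d at 323. Just inside the abundance limit, by the higher FPKM, were Itfg1 at 14.9, Fcho1 at 14.8, Timm17a at 14.6, Fundc2 at 14.2 and Micu2 at 13.9. Psma3 at 15.2 FPKM, Higd1a at 15.3, Rbm8a at 15.6, Alyref at 15.6 and Sf3b5 at 15.9 were the long-lived mRNAs just outside it.

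By function, 8 of the 21 lists compared held a member, and many of the lists held few low-abundance mRNAs. The 1203 low-abundance mRNAs were assigned to 21 functional lists by symbol or symbol prefix, which took up 403 of them and 17 of the 44 members. Against the 3.66% of all low-abundance mRNAs that were members, mitochondrial assembly and import held 4 of 18 (22.2%: Tomm7, Atp5j, Timm17a and Micu2, the last caught by its prefix). Extracellular matrix and adhesion held 3 of 20 (15%: Col1a2, Lox and Timp2), while its symbols did not catch Dcn, Tnc and Matn4. RNA processing and decay held 4 of 30 (13.3%: Snrpb2, Lsm6, Lsm8 and Hnrnpa0), and with an FPKM limit of 20 it held 8 of 49. Vesicle traffic, with 2 of 41 (4.88%: Rab2a and Rabl3), was near the background. The other 6 members of membrane traffic and autophagy were not caught by its symbols. Low-abundance mRNAs of the same functions that were not members and were also missed by the symbols were not counted. Missed members are therefore not to be added to these shares. The other 4 lists with a member held 1 each: Pxmp2 of 4 peroxisomal mRNAs, Parp3 of 8 for DNA repair, Txnrd3 of 10 metabolic enzymes, and Stk31 of 31 kinases and phosphatases.

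No member was found in 13 of the 21 lists. Transcription factors gave 0 of 51, uncharacterised TMEM, FAM and CCDC proteins 0 of 57, and the ubiquitin system 0 of 42, although Kbtbd7 and Sem1 are part of that system and were not caught by its prefixes. Lists with 16 or fewer low-abundance mRNAs, at which a share near the background gives less than 1 member, were tRNA and rRNA modification (0 of 16), GPI anchor and glycosylation (0 of 16), chaperones (0 of 15), chromatin enzymes (0 of 14), cilium and centrosome (0 of 10), RNA polymerase and general transcription factors (0 of 9), lysosome (0 of 7), cofactor synthesis (0 of 5), fatty acid and branched-chain amino acid oxidation (0 of 4) and antigen presentation and interferon response (0 of 2). In the larger lists, too, a share near the 3.66% of all low-abundance mRNAs gives few members. Nothing is read from any of these zeros. The low-abundance mRNAs of the lists differed in their median half-life as well: 317 min in TAG/+ and 259 min in TAG/TAG for extracellular matrix and adhesion, 244 and 229 min for mitochondrial assembly and import, 140 and 121 min for transcription factors, and 122 and 109 min for chromatin enzymes.

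**Figure D3:**
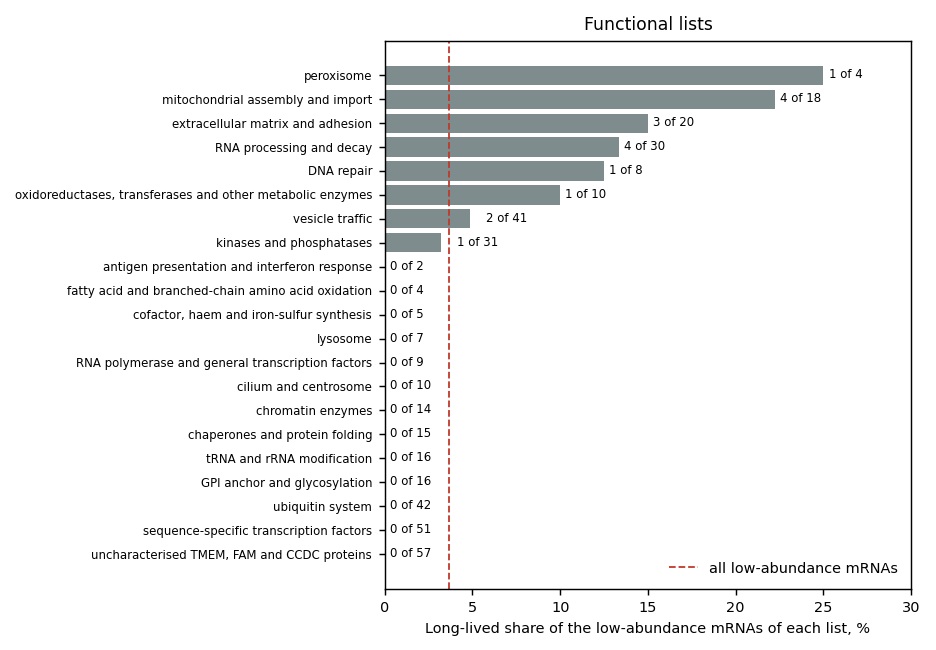
Share of the low-abundance mRNAs of each of 21 functional lists that were long-lived (horizontal axis, percent, from 0), with the count of members and of low-abundance mRNAs beside each bar. The dashed red line is the share over all 1203 low-abundance mRNAs, 3.66%. Bars for 13 lists are at 0, and the lists with 3 or more members are mitochondrial assembly and import, extracellular matrix and adhesion, and RNA processing and decay.

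Sequence features were compared over 1 GENCODE M21 coding transcript per gene (44 members and 1158 others). The rule did not use them directly, but the FPKM it used is scaled to transcript length. Members were shorter, with a median transcript length of 2526 nt beside 3551 nt, a coding length of 897 nt beside 1281 nt and a 3′ UTR of 1165.5 nt beside 1667 nt. Coding sequences under 500 nt were found in 14 of 44 members (31.8%) and in 100 of 1158 others (8.64%). Exon number, with a median of 7 in each group and of 8 in the others at 5 FPKM or more in both lines, and the GC content of the 3′ UTR, with medians of 40.6% and 41.4%, differed little. The shortest coding sequence was that of Tmsb4x, at 132 nt. The others under 500 nt included small subunits of larger complexes, namely Tomm7 with 165 nt, Sem1 with 210, Lsm6 with 240, Lsm8 with 288 and Atp5j with 324. The longest coding sequences were the matrix genes Tnc, with 6057 nt, and Col1a2, with 4116 nt.

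**Figure D4:**
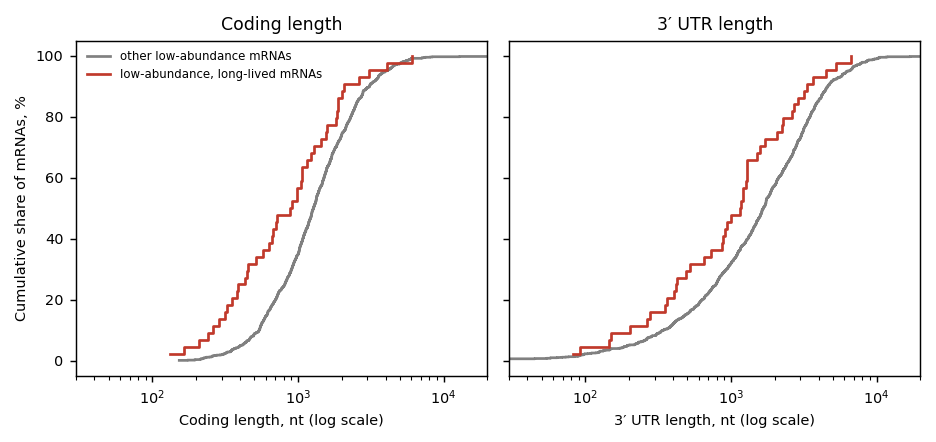
Cumulative share of mRNAs (vertical axis, percent) by coding length (left) and 3′ UTR length (right) in nt on a log scale, for the 44 members (red) and 1158 other low-abundance mRNAs (grey). The red curve lies to the left of the grey over most of each range, with medians of 897 and 1281 nt for coding length and of 1165.5 and 1667 nt for the 3′ UTR.

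Because transcript length enters FPKM, the length used matters for these genes. The deposited FPKM matched the mean length of all annotated transcripts of a gene, which was 0.888 of the coding transcript's length in the median member and 0.669 in the median other gene. With FPKM computed from the length of the coding transcript, 81 genes met the rule. Of the 44 members 43 were among them, with Lsm8 lost. The comparison of lengths was not repeated on those 81 genes.

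Each searched element was found in the 3′ UTR of a smaller share of members than of other low-abundance mRNAs. The NANOS2 motif, as spelled above, was present in 19 of 44 members (43.2%) and in 57.5% of the others, at 0.467 and 0.619 matches per kb. The AU-rich pentamer AUUUA was present in 29 members (65.9%) and 83.1% of the others, at 1.96 and 2.16 per kb. The PUMILIO element UGUANAUA was present in 13 members (29.5%) and 36.4% of the others, at 0.301 and 0.259 per kb, so that by density its order was the reverse. AUUUA and the NANOS2 motif can overlap by a few letters, and each match was counted for its own motif. The members' shorter 3′ UTRs moved with these shares. Within classes of 3′ UTR length the NANOS2 motif was present in 4 of 20 members (20%) and 29.2% of 363 others up to 1000 nt, in 6 of 12 (50%) and 56.6% of 297 between 1000 and 2000 nt, and in 9 of 12 (75%) and 79.8% of 491 above 2000 nt. For AUUUA the shares in the same classes were 30% and 57.0%, 100% and 92.6%, and 91.7% and 97.8%. For UGUANAUA they were 10% and 18.2%, 41.7% and 27.9%, and 50% and 55.6%, so both elements were more frequent in members between 1000 and 2000 nt and less frequent in the other classes. Timm17a, with 5 matches in 6705 nt, and Fundc2, with 4 in 2072 nt, had several, whereas Timp2 had 0 in 2630 nt and Eif1ax 0 in 4515 nt.

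Reads from near-identical copies can be lost or misassigned in short, conserved genes. Of all 50-mers sampled along each gene's exons, the median member had 99.9% that occurred once in the genome, beside 99.7% for the others. Under 90% were unique in 3 members, Gabarapl2 (68.8%), Rab2a (83.7%) and Kbtbd7 (83.7%), or 6.82% of members beside 7.25% of the others. The FPKM of these 3 are therefore uncertain. Only exact matches of 50-mers within exons were counted, so copies with a mismatch and reads across exon junctions were not covered. A high share of unique 50-mers thus does not clear the FPKM of the other members.

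Half-lives of the members were compared between the lines as a description, since the rule used the half-lives of both. The value was longer in TAG/TAG for 36 of 44, with a median ratio of 1.23 (log2 0.30). Over all 1203 low-abundance mRNAs 49% were longer in TAG/TAG, and over all 5806 transcripts with a half-life 54.1% were, but neither set was chosen for long half-lives and nothing is read from the difference. With the TAG/TAG line alone 106 genes met the rule, and with the TAG/+ line alone 73 did. Among the 530 abundant mRNAs with at least 350 min in both lines, chosen by the same half-life limit, 374 were longer in TAG/TAG (70.6%). That set kept the symbols that were left out of the members. More than 1.5-fold longer half-lives in TAG/TAG were found for 8 members, beside 14% of low-abundance mRNAs and 10% of all transcripts. They were Elmod2 (log2 2.13), Ptgr1 (1.27), Parp3 (1.14), Matn4 (0.97), Snrpb2 (0.88), Itfg1 (0.85), 2410004P03Rik (0.84) and Tmsb4x (0.75). Enpp5 (log2 -0.85) was the sole member more than 1.5-fold shorter in TAG/TAG, beside 18.5% and 10.7%. These percentages are again from sets not chosen for long half-lives, and nothing is read from the difference to them. Of the 530 abundant mRNAs chosen by the same half-life limit, 47 were more than 1.5-fold longer in TAG/TAG and 5 more than 1.5-fold shorter. With 1 fitted value per line the differences between the lines have no replicate check, and genotype and line cannot be told apart.

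In abundance the members split between the lines. FPKM was lower in TAG/TAG for 28 of 44 (63.6%), beside 54.1% of low-abundance mRNAs and 49.5% of all 13904 genes with an FPKM. The median log2 ratio of TAG/TAG over TAG/+ was -0.15, beside -0.04 for the others. Among the 530 abundant mRNAs with at least 350 min in both lines 60.4% were lower, with a median log2 ratio of -0.11. The members lay near that set, from which no symbols were left out. Ratios were computed after adding 0.1 FPKM, which slightly understates them for low values. More than 2-fold higher in TAG/TAG were 5 members, beside 10.2% of low-abundance mRNAs and 13.5% of all genes. They were Atp5j (log2 1.82), Dcn (1.18), Lox (1.10), Anxa6 (1.09) and Parp3 (1.08). More than 2-fold lower were 7, beside 5.74% and 9.59%, namely 2410004P03Rik (-1.86), Snrpb2 (-1.53), Tmsb4x (-1.51), Rab2a (-1.49), Tomm7 (-1.19), Hnrnpa0 (-1.16) and Pxmp2 (-1.08). In either direction this made 12 of 44, beside 16% and 23.1%.

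The reads behind some of these 12 values were few. Atp5j was at 2.99 FPKM (interval 1.80 to 4.67, 19 reads) in TAG/+ and 10.8 (8.50 to 13.6, 74 reads) in TAG/TAG. Snrpb2 was at 5.29 (4.10 to 6.72, 67 reads) and 1.76 (1.13 to 2.62, 24 reads). Lox, on 280 and 654 reads, was at 5.57 (4.94 to 6.27) and 12.1 (11.2 to 13.1). Tmsb4x, the least covered member in TAG/TAG with 13 reads, was at 4.25 (2.98 to 5.88) and 1.43 (0.759 to 2.44). These genes were picked for their difference in the same reads, so the intervals describe the 2 libraries and do not test the difference. Among these 12, longer half-life and lower FPKM in TAG/TAG occurred together in Snrpb2, Tmsb4x, Tomm7, 2410004P03Rik, Rab2a, Hnrnpa0 and Pxmp2. These were all 7 of the members that were more than 2-fold lower. Dcn, Lox, Parp3 and Atp5j were higher in both measures, and Anxa6 was higher in FPKM with the shorter half-life. Since 36 of all 44 members had the longer half-life in TAG/TAG, no link between the 2 measures is read from this.

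**Figure D5:**
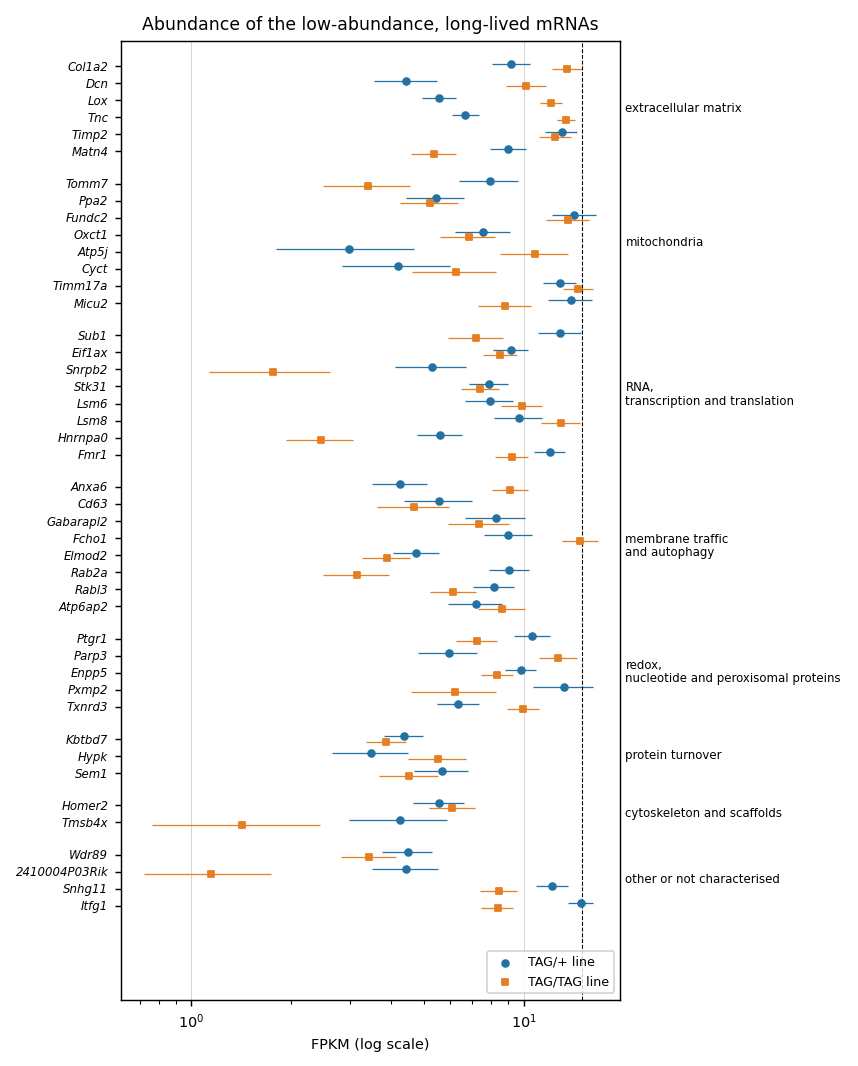
FPKM of each of the 44 members (horizontal axis, log scale) in the TAG/+ library (blue circles) and the TAG/TAG library (orange squares), grouped by role, with exact 95% Poisson intervals on the reads as bars and 1 library per line. The dashed line is the limit of 15 FPKM. TAG/TAG is higher for 4 of 6 matrix genes and lower for 6 of 8 genes of RNA metabolism, beside 16 and 28 of all 44 members. The lowest values in TAG/TAG are those of 2410004P03Rik and Tmsb4x, at 1.15 and 1.43 FPKM.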

How the data were processed

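The authors deposited FPKM per gene for 1 RNA-seq library of each line and 1 half-life in min per transcript and line. The submitters' processing notes name kallisto and DESeq2 for the RNA-seq libraries. The annotation and the lengths behind the FPKM were not given in the sources used here. Half-lives were made by the authors with SlamDunk, from first-order decay fits to T-to-C conversion rates, and are printed as their values, with no error. Columns were matched to lines by their headers and table names, which is a reading, and the rule treats both lines alike. The 4 CRAC libraries were not analysed here.

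Genes were joined by symbol in Python 3.11.15 (pandas 2.3.3, numpy 2.4.6). Whole reads were recovered from FPKM and GENCODE M21 lengths, and 50-mer uniqueness was counted in GRCm38 every 10 bases. Both steps were checked on simulated data. A transcript with the best APPRIS level was taken for each gene, and ties went to the longest 3′ UTR. No gene-wise test was run, since each line had 1 library or 1 fitted half-life. Named genes were the 20 members with the highest lower half-life, up to 4 per list, those with more than a 2-fold FPKM difference and the 5 nearest each limit, and the remaining members were named after their values were seen. The members and lists were chosen with earlier results of these data known, and the role groups after values were seen. Alternatives were other limits, single lines, other lengths, uniqueness and read minimums.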

Additional observations from a re-analysis of the deposited data

How the results depend on the processing

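The number of members, 44, depended most on how the lines were combined. It was 79 (5.63% of low-abundance mRNAs) with the mean of the lines, 73 with the TAG/+ line alone, 106 (7.29%) with the TAG/TAG line alone and 26 with an FPKM limit of 10. It was 81 with FPKM per length of 1 coding transcript, an alternative chosen after seeing the data. It stayed within 1.5 times of 44 with an FPKM limit of 20 (66), half-life limits of 300 min (64) and 400 min (32), half-lives of at most 1440 min (41), no symbols left out (48) and, chosen after seeing the data, with at least 90% unique 50-mers (41), at least 50 reads in each library (37) or no matrix, adhesion and fibroblast marker genes (40). The median log2 FPKM ratio ranged from -0.20 to -0.10 and the median log2 half-life ratio from 0.27 to 0.34 over their alternatives. No paired analysis was possible because each line had 1 library or 1 fitted half-life and no test was run. No fit error came with the half-lives, and members near 350 min rest on values whose precision is unknown.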

Other observations

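The symbols left out by the rule held 4 further mRNAs that met both limits, all for mitochondrial proteins. Ndufa5, Ndufb3 and Ndufaf8 encode subunits and an assembly factor of respiratory complex I, and Mrpl35 a protein of the large mitochondrial ribosomal subunit. Ndufa5 had half-lives of 495 min in TAG/+ and 730.1 min in TAG/TAG at 3.00 and 1.64 FPKM, on 17 and 10 reads. Ndufb3 had 411 and 622 min at 7.09 and 5.69 FPKM. Ndufaf8 had 400.05 and 420.5 min at 13.2 FPKM in each line, and Mrpl35 had 362 and 442 min at 9.11 and 12.4 FPKM. All 4 had the longer half-life in TAG/TAG, as did 7 of the 8 mitochondrial members and 36 of all 44 members.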
